A study of Mus musculus with 11 samples.

Results

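Loss of DNA methylation in LSK cells after deletion of Dnmt3a was examined in 6 of the 11 libraries of a mouse series, all those made from LSK cells, the lineage-negative, Sca1-positive, cKit-positive fraction of bone marrow that holds the blood stem cells and early progenitors. The members were the C positions on autosomes read at least 10 times in each of the 6 libraries, 1372743 positions in all. All animals were C57BL/6, 12 months old, carried loxP-flanked Dnmt3a alleles (Dnmt3a f/f) and had received 5 injections of poly(I:C). The knockout group (libraries 1327, 1333 and 1334) carried Mx1-Cre, and the control group (libraries 1326, 1330 and 1331) had the same alleles and injections but no Cre. Mx1-Cre is driven by an interferon-responsive promoter and recombines in many tissues besides blood, so that the cells around the sorted fraction may have lost Dnmt3a as well. The labels do not say whether a library came from 1 animal or a pool, and the p-values below measure the spread between these libraries. DNA alone was measured, so the sorted fraction could not be checked by the expression of its markers.

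Dnmt3a is a de novo DNA methyltransferase, an enzyme that adds methyl groups to cytosines in CpG dinucleotides that carry none, while Dnmt1 copies existing marks after replication. Tet enzymes oxidise the methyl group and lead to its removal, and Dnmt3a and Tet activity meet at the edges of unmethylated stretches and at enhancers, where methylation is often intermediate. In blood, loss of Dnmt3a function is known for raising stem cell self-renewal over differentiation, and DNMT3A is among the genes most often mutated in human acute myeloid leukaemia and clonal haematopoiesis.

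Methylation was measured by enhanced reduced representation bisulfite sequencing, in which DNA cut by MspI at CCGG is size-selected and bisulfite-treated, so that unmethylated C reads as T. The level of a position is the percentage of its reads that kept C, and a difference in levels is given in percentage points (points), knockout minus control. Coverage summed over autosomal positions was 153.9 to 178.8 M per library (a read counts at each C position it covers, so this is not a number of reads), with a median of 85 to 105 reads per position. Some libraries stood apart: knockout 1333 listed 125520 positions found in no other LSK library, against 7932 to 25255 for each of the others, and control 1326 and knockout 1327 listed 1470 and 1422 positions on chromosome Y, against 211 to 229 in the other 4 libraries. On chromosome X, control 1326 and knockout 1327 listed 33313 and 32861 positions, against 36153 to 38423 in the other 4. In 3 windows of 5 Mb (chromosome 4 from 150 Mb, chromosome 10 from 10 Mb and from 25 Mb) the control and knockout groups listed partly different positions. Some were listed in every library of a group and in none of the other group. Among well-covered positions these numbered 173, 18 and 22, beside 8988, 1792 and 1251 common positions. These windows hold 12031 of the common positions (0.876%).

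Within Dnmt3a itself (chr12:3801559-3914443), 390 positions were listed in all 3 controls, and 364, 378 and 383 of them in knockouts 1327, 1333 and 1334. Of these, 7 were listed in no knockout library, 2 at 3806485 and 3806489, where the controls had 10 to 13 reads, and 5 between 3903653 and 3904031, where the controls had 18 to 174 reads. An unlisted position has fewer than 10 reads. Whether these 5 positions lie in the deleted segment was not tested, and the files hold no direct measure of the share of recombined alleles.

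The promoter sequences below show the windows where the loss was largest, so that the CpGs behind the values can be seen. They are the 6 RefSeq promoter windows (250 bases before to 50 after an annotated start, build GRCm38.p6, read 5′ to 3′ on the gene's strand) with the largest fall among 10293 windows with at least 4 listed positions. Capitals mark each CG with a listed position on either strand.
Gm13205: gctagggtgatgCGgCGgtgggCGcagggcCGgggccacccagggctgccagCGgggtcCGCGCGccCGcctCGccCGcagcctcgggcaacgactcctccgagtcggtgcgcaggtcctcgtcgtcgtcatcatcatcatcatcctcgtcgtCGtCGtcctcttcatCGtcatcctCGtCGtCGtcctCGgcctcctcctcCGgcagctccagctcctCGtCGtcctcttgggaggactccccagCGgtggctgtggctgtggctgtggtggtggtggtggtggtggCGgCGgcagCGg
Alpk3: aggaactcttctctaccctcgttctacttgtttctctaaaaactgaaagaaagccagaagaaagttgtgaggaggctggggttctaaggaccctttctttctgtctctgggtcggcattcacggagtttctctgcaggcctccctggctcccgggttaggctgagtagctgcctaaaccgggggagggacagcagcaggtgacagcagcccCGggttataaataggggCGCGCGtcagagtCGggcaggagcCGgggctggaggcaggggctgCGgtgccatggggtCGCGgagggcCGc
Gm32273: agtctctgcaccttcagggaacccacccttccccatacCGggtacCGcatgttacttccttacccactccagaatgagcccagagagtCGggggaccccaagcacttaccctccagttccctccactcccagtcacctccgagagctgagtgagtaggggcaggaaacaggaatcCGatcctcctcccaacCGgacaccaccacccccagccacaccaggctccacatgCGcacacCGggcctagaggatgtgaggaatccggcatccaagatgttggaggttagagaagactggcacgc
Spred3: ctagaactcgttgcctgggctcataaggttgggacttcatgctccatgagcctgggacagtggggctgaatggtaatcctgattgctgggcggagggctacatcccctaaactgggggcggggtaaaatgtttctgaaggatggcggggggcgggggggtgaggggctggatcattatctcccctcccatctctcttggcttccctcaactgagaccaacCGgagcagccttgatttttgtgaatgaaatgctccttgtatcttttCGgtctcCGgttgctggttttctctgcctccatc
Eva1b: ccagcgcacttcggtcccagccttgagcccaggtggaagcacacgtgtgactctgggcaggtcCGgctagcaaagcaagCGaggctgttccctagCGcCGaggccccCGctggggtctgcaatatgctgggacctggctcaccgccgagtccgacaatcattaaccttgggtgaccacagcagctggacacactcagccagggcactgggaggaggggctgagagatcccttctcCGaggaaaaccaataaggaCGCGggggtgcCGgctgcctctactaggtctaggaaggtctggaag
Hoxa5: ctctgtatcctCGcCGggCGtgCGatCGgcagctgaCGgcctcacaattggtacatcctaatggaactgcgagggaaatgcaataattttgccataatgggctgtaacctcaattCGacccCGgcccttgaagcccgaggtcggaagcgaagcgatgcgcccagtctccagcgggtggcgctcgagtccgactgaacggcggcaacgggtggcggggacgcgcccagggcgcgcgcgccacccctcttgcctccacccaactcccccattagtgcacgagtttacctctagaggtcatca

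The window of Gm13205, a long non-coding RNA gene (chr4:148952273-148952572, minus strand), has 35 CpGs, of which 25 were listed, and its level was 91.0, 86.0 and 89.99% in controls 1326, 1330 and 1331 and 62.5, 47.4 and 37.4% in knockouts 1327, 1333 and 1334. Alpk3, which encodes an alpha kinase best known from heart muscle (chr7:81057350-81057649, plus strand), has 15 CpGs with 10 listed, and fell from 77.3, 75.5 and 70.8% to 42.5, 37.5 and 28.1%. The window of the lncRNA gene Gm32273 (chr11:68956737-68957036, plus strand) has 10 CpGs and went from 81.2 ± 2.14% to 46.1 ± 4.45% (SD, n = 3 libraries per group). In none of these 3 windows did a knockout library reach the lowest control.

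Spred3, which encodes an inhibitor of Ras-MAPK signalling (chr7:29168598-29168897, minus strand), has only 8 CpGs, and its 5 listed positions fell from 50.5, 58.0 and 53.9% to 15.1, 23.0 and 19.6%. Eva1b, which encodes a small transmembrane protein (chr4:126147753-126148052, plus strand), went from 50.1, 47.1 and 46.0% to 16.7, 11.7 and 12.7%. Hoxa5, a homeobox transcription factor gene of the HoxA cluster (chr6:52204538-52204837, minus strand), has 29 CpGs of which 8 were listed, and its controls spread from 55.5 to 71.7% while the knockouts held 46.1, 27.0 and 28.2%. These windows span 8 to 35 CpGs, with controls between 46.0 and 91.0%; they were chosen by the fall itself, so the values describe them and test nothing. The window next in order, Gm39468, differed by -31.7 points against -31.9 for Hoxa5. CCGG, the MspI site, which reads the same on both strands, occurs 2 to 4 times in each of the 6 windows and at least once in 53.5% of the 31396 promoter windows of the table.

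Over all common positions the mean level was 33.05, 33.05 and 33.01% in the controls and 32.34, 31.93 and 31.84% in the knockouts. The 3 knockouts lay below the 3 controls, and the difference was -0.998 points (33.04 ± 0.0264% against 32.04 ± 0.262%, SD, n = 3; two-sided exact permutation over the libraries, p = 0.1, below which 3 against 3 cannot go). Without knockout 1333 it was -0.946 points. When positions were weighted by their coverage the difference was -0.748 points and the groups no longer separated (exact permutation p = 0.7). Knockout 1327 lost least. The difference was -0.716 points between the 2 libraries with many Y positions (1326 and 1327) and -1.14 points among the other 4.

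The size of the loss depended on how methylated a position was to begin with. Positions were sorted by their level in the 2 control libraries of GMP (granulocyte-macrophage progenitors, a more differentiated fraction), 346 and 349, so that no LSK library set its own bin. At 20 to 40% the LSK controls held 30.4, 30.9 and 30.4% and the knockouts 25.8, 23.4 and 23.9%, a difference of -6.14 points. The largest fall was at 40 to 60%, from 52.7, 53.2 and 52.3% to 47.1, 43.1 and 44.3%, a difference of -7.91 points. At 60 to 80% the level went from 74.6 ± 0.31% to 68.6 ± 1.66% (SD, n = 3), or -6.00 points. Positions at 80 to 100% differed by -1.39 points (93.8 against 92.4%) and those at 0 to 20% by -0.224 points (1.31 against 1.09%), which is 17.1% of the control level.

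In each of the 5 level bins the 3 knockouts lay below the 3 controls, with an exact permutation p of 0.1 (the smallest possible; adjusted over the bins, 0.1). Without 1333 the differences ran -0.284, -5.65, -7.07, -5.32 and -1.24 points from the lowest bin to the highest, so the peak stayed at 40 to 60%. Positions between 20 and 80% in control GMP made up 6.80% of the 1302638 positions that could be binned and 44.4% of the net loss, while the bin at 80 to 100% gave 41.4% of it from 29.9% of the positions. When positions counted by their reads, the bin at 20 to 40% differed by -3.76 points.

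Local density was measured as the number of listed C positions, on both strands, within 100 bp. It counts only positions read at least 10 times in all 6 libraries, so it is not the density of CpGs in the genome. Over all positions the fall was largest where density was lowest: -2.02 points at 1 to 4 positions, -1.59 at 5 to 9, -0.607 at 10 to 19 and -0.130 at 20 or more. With density counted within 500 bp that order was lost among the sparser bins, at -1.89, -2.02, -1.88 and -0.326 points. Dense positions were mostly unmethylated in the controls (1.46% at 20 or more, against 76.7% at 1 to 4), so the bins were compared again among positions at 20 to 80% in control GMP. The LSK controls there still fell with density, from 61.6, 56.7 and 44.7% to 32.7%. The differences were -6.44, -6.74, -6.85 and -5.35 points from the sparsest to the densest bin. Relative to the control level these are 10.5, 11.9, 15.3 and 16.4% of the methylation present.

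**Figure D1:**
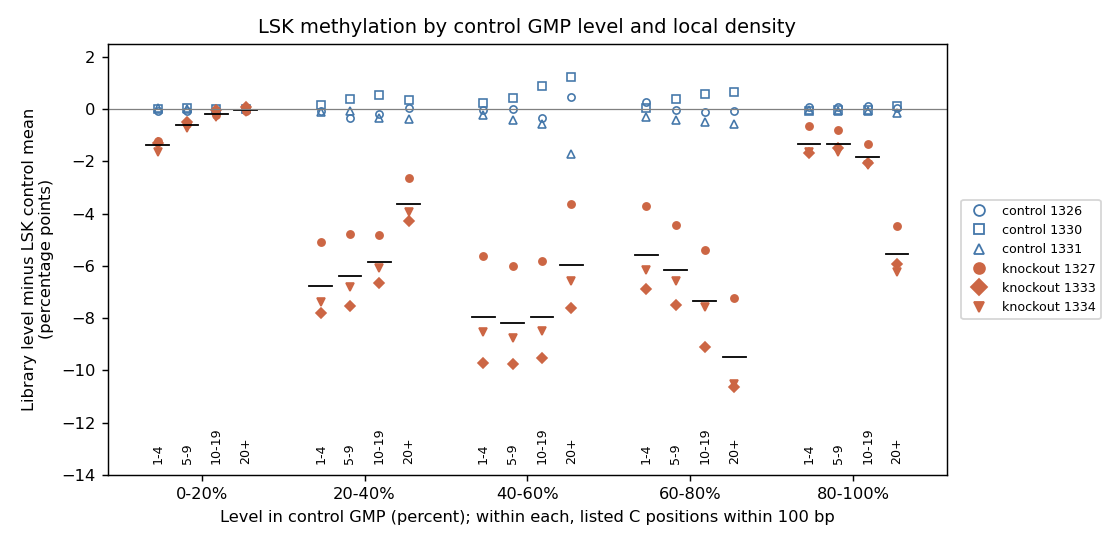
Each LSK library's mean level minus the mean of the 3 controls (vertical axis, percentage points), for 20 bins of C positions: 5 bins of the level in control GMP, each split by the number of listed C positions within 100 bp (written along the bottom). Open blue symbols are controls, filled orange symbols knockouts, and black bars the knockout mean; knockout symbols lie below 0 in all bins but the densest, least methylated one, and reach furthest at 60 to 80% with 20 or more positions.

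Highly methylated and dense positions, a small class of 2600, stood out from highly methylated sparse ones. At 80 to 100% in control GMP and 20 or more positions within 100 bp, the controls held 90.7, 90.8 and 90.5% and the knockouts 86.2, 84.8 and 84.4%, a difference of -5.55 points, against -1.32 points for the 244454 sparse positions (1 to 4) at that level. The dense-minus-sparse gap was -3.16 ± 0.16 points in controls and -7.39 ± 0.369 points in knockouts (SD, n = 3), and the change in that gap, -4.23 points, was nearly the same without 1333 (-4.22; exact permutation p = 0.1, the smallest possible). At 60 to 80% the dense positions differed by -9.47 points and the sparse ones by -5.58, a change in the gap of -3.89 points; the dense ones held 60.4% and the sparse ones 75.7% in the LSK controls, so their levels were not matched. At 0 to 20% the order was turned around: sparse positions differed by -1.37 points (6.45 to 5.07%), and the dense ones, at 0.526% in controls, by -0.0376 points with overlapping groups (p = 0.5, exact permutation). These contrasts were picked after the bin values had been seen.

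Distance to the nearest gene start was taken from annotated RefSeq starts, or from both ends of a gene without one in the table. Over all positions the fall was smallest at the starts, where most CpG islands lie unmethylated: -0.214 points within 0.5 kb, -0.784 at 0.5 to 1 kb, -1.67 at 1 to 2 kb, -2.24 at 2 to 5 kb, -2.07 at 5 to 20 kb and -1.52 at 20 to 100 kb. Beyond 100 kb the difference was -0.427 points and the groups overlapped (knockout 1327 held 84.97%, the controls 84.91 to 85.11%; exact permutation p = 0.2). In the fine bins around annotated starts, the controls rose from 2.33% in the first 250 bp of the transcript to 57.0% at 4 to 5 kb, and the loss from -0.141 to -2.40 points.

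**Figure D2:**
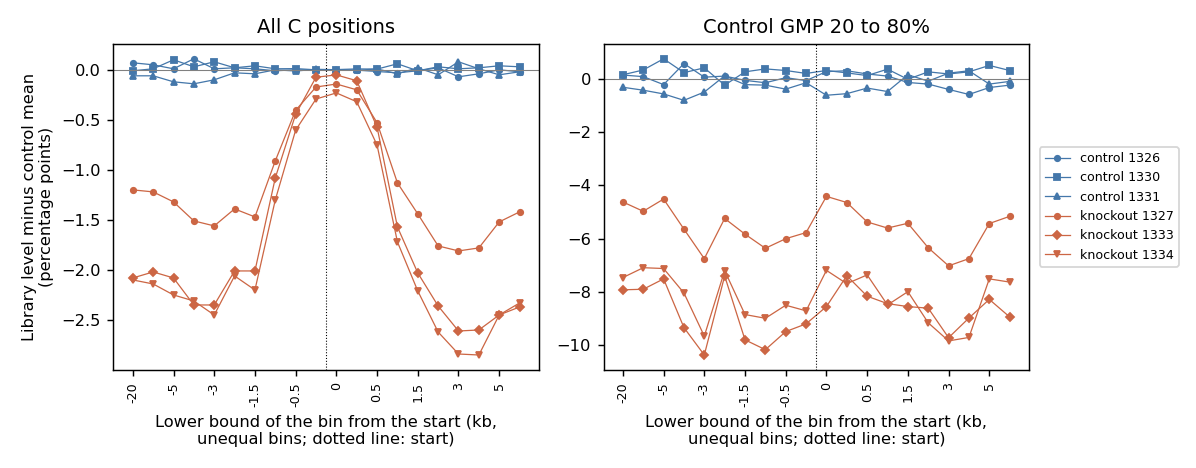
Each library's level minus the control mean (percentage points) in unequal bins from 20 kb before to 20 kb after the nearest annotated start, for all positions (left) and for those at 20 to 80% in control GMP (right). All positions dip towards no loss at the start, while positions of intermediate level keep a loss of 6.38 to 8.92 points in each bin.

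Among positions at 20 to 80% in control GMP the fall in points near starts was of the same order as at 2 to 5 kb. The differences were -7.11 points within 0.5 kb (43.4, 43.6 and 42.9% in controls, 38.2, 34.8 and 35.6% in knockouts), -7.45 at 0.5 to 1 kb, -7.46 at 1 to 2 kb, -7.81 at 2 to 5 kb, -6.79 at 5 to 20 kb and -5.35 at 20 to 100 kb. Beyond 100 kb from a start, 3909 such positions held 65.3, 65.4 and 64.8% in controls and 64.2, 61.8 and 62.7% in knockouts, a difference of only -2.25 points. The control means were not matched, at 43.3% within 0.5 kb, 57.3% at 2 to 5 kb and 65.15% beyond 100 kb. Relative to these levels the losses were 16.4, 13.6 and 3.46%. The gap between 2 to 5 kb and beyond 100 kb changed by -5.56 points from controls to knockouts (-5.60 without 1333; exact permutation p = 0.1, the smallest possible), a contrast also chosen after the values were seen. Distance to either end of any gene gave the same picture, -7.05 points within 0.5 kb and -2.15 beyond 100 kb. Median coverage was 90.2 reads beyond 100 kb and 93.2 at 2 to 5 kb.

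**Figure D3:**
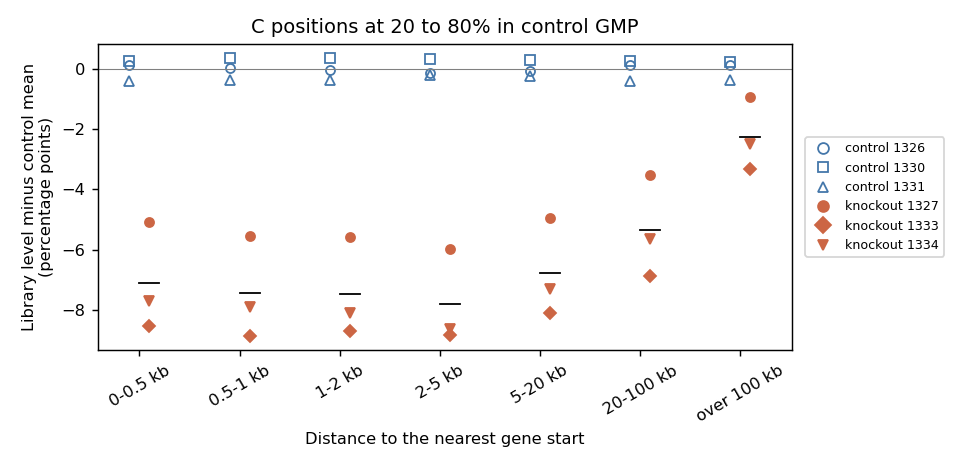
Each LSK library's level minus the control mean (percentage points) for positions at 20 to 80% in control GMP, by distance to the nearest gene start. Filled knockout symbols lie below the open control symbols in each bin and are nearest to them beyond 100 kb, where the bar of the knockout mean is at -2.25 points.

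To place the loss in genes, reads were summed over tiles of 1000 bp with at least 3 positions, and each tile was tested with a quasi-binomial model whose dispersion was moderated across tiles. A tile was called where the Benjamini-Hochberg adjusted p was under 0.05 and the groups differed by at least 20 points. Of 104429 tiles, 994 were lower in the knockout (0.952%) and 3 were higher (0.00287%). In 15.3% of all tiles the 3 knockouts lay below the 3 controls and in 3.39% above them. The median difference was -25.4 points over the lower tiles and -0.387 points over all tiles. Without 1333, 1013 tiles were lower (0.97%), 811 of them shared, and 16 were higher; without control 1330 the count was 583, without control 1326 653, without control 1331 614, and without knockouts 1327 and 1334, each in turn, 1455 and 666. With each tile's own dispersion and no moderation none passed (0 lower, with 10740 tiles at an unadjusted p under 0.05).

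In the lower tiles the median level was 65.7, 66.0 and 65.9% in controls 1326, 1330 and 1331 and 41.1, 33.3 and 35.9% in knockouts 1327, 1333 and 1334. Knockout 1327 was the highest of the 3 knockouts in 656 of the 994 and 1333 the lowest in 519. The knockout mean was under 20% in 222 lower tiles. Most stood alone: they formed 959 separate stretches, 30 of 2 or more neighbouring tiles and none longer than 3.

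Lower tiles were most frequent at intermediate levels, where 7.05% of the tiles at 40 to 60% in control GMP were lower, against 0.457% at 80 to 100% and 0.0948% at 0 to 20%. Tiles at 0 to 20% averaged 3.07% in the LSK controls, so hardly any could fall by the 20 points that a call needs. Their low share is thus set largely by the threshold. Gene bodies held 630 of them (1.24% of the tiles there), the space outside genes 211 (0.729%) and the 1 kb around gene ends 153 (0.623%). Among tiles at 20 to 80% in control GMP these shares were 5.74, 3.48 and 5.17%. By distance to a start the share was highest at 2 to 5 kb (1.39%) and lowest beyond 100 kb (0.281%); at 20 to 80% in control GMP it was 5.47 and 2.16%. By chromosome it ran from 0.508% on chromosome 13 to 1.35% on chromosome 19.

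The lower tiles touched 663 genes, 84 of them with at least 2 and 24 with at least 3. The 15 described here are the 10 with at least 4 and, of the 14 with 3, the 5 with the largest median loss, so the last 5 were chosen partly by the loss. Of their 71 lower tiles, 44 stayed called whichever library was left out; 17, 18 and 24 lost the call without controls 1326, 1330 and 1331, and 1, 9 and 20 without knockouts 1327, 1333 and 1334. Gse1, which encodes a subunit of a histone deacetylase corepressor complex (chr8:120228501-120581383), had the most, 9 of its 112 tiles, of which 4 stayed called whichever library was left out (5 lost the call without control 1331 and 4 without control 1326). Their mean level was 71.8, 71.3 and 72.0% in the controls and 46.0, 42.0 and 42.5% in the knockouts, and they were spread between 33.0 and 330.0 kb from the upstream end of the gene. Nfix, a nuclear factor I transcription factor gene needed by transplanted blood stem cells (chr8:84704712-84801238), had 7 of 26, which went from 46.9, 46.7 and 47.6% to 19.7, 18.9 and 15.8%. Its lowest, chr8:84721001-84722000, held 41.9 ± 7.62% in controls and 4.85 ± 2.09% in knockouts (SD, n = 3; adjusted p = 0.000553).

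Runx3, a Runt-family transcription factor gene of T and myeloid cells (chr4:135120645-135177990), had 6 of 19 tiles lower and the largest median loss among the 24 genes with at least 3; 5 of the 6 stayed called whichever library was left out. Over the 6 the controls held 73.0, 72.7 and 73.4% and the knockouts 34.8, 18.3 and 27.1%. A stretch of 3 neighbouring tiles, 33.9 to 35.9 kb from the upstream end of the gene, chr4:135154001-135157000, went from 62.5 to 16.5%. The tile chr4:135155001-135156000, with 17 positions, went from 64.3, 65.4 and 62.8% to 15.8, 8.07 and 9.31% (-53.1 points, adjusted p = 4.946e-05 by the quasi-binomial test), and chr4:135166001-135167000 from 83.9, 85.9 and 90.4% to 32.0, 0 and 40%, on 20.3 reads per position. Tiles at 18.9, 40.9 and 42.9 kb held 92.7 to 97.3% in the 6 libraries.

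**Figure D4:**
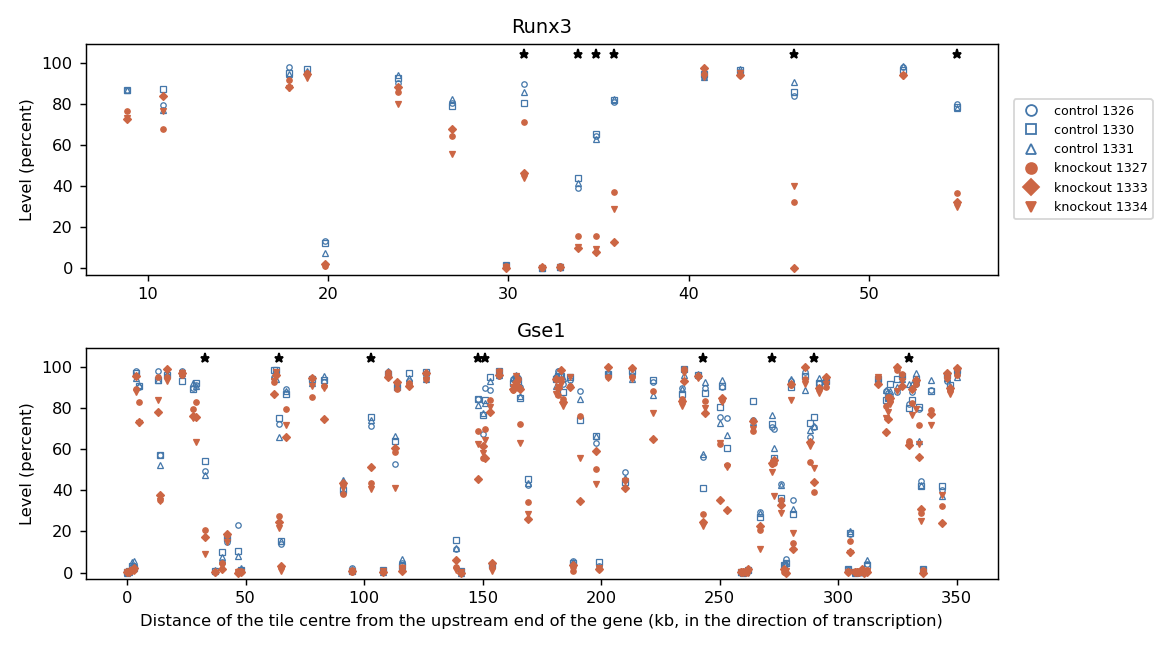
Level of each measured 1000-bp tile (percent) in the 6 LSK libraries along Runx3 and Gse1, by distance of the tile centre from the upstream end of the gene in kb. Stars mark the 6 and 9 lower tiles; in Runx3 they lie from 30.9 kb onward, between tiles that are low or high in all 6 libraries.

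Prdm16, a zinc finger transcription factor gene needed to maintain blood stem cells, had 6 of 65 tiles lower, from 64.5, 64.2 and 66.0% to 41.3, 32.8 and 33.7%; its 6 lower tiles lie in the chromosome 4 window where the groups listed different positions. Pitpnm2, a phosphatidylinositol transfer protein gene, had 6 of 33 (62.8 to 32.5%) and Zmiz1, whose product is a coactivator that works with Notch1, 6 of 35 (57.1 to 31.5%). Of these, 4 Prdm16, 4 Pitpnm2 and 2 Zmiz1 tiles stayed called whichever library was left out. Ltbp3, which encodes a protein that binds latent TGF-beta, and Smad6, an inhibitory Smad gene of BMP signalling, had 4 of 10 and 4 of 19, and fell by 34.8 and 33.1 points. Ephb2, an ephrin receptor gene, and Ece1, the endothelin-converting enzyme gene, had 4 each, and fell by 33.6 and 26.5 points.

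Hlf, a bZIP transcription factor gene active in blood stem cells, had 3 of only 6 tiles lower. Over these 3 the controls held 47.3, 58.6 and 52.2% and the knockouts 26.8, 22.2 and 24.4%; the call of 2 of the 3 was lost without control 1330, without control 1331 or without knockout 1334. Rhoc, a small GTPase gene, had 3 of 4 (69.2 to 41.4%), Pik3c2b, a class II phosphoinositide 3-kinase gene, 3 of 13 (74.2 to 28.3%), Macrod1, an ADP-ribose hydrolase gene, 3 of 27 (66.4 to 36.2%) and Wwox, an oxidoreductase gene at a chromosomal fragile site, 3 of 92 (60.7 to 32.3%). Whichever library was left out, 1 tile of Rhoc, 1 of Pik3c2b, 3 of Macrod1 and 2 of Wwox stayed called; the other Rhoc tiles both lost the call without any 1 control. In all 15 genes each knockout library lay below each control over the lower tiles. This follows from the choice of tiles, because the same was true of each of the 994 lower tiles.

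**Figure D5:**
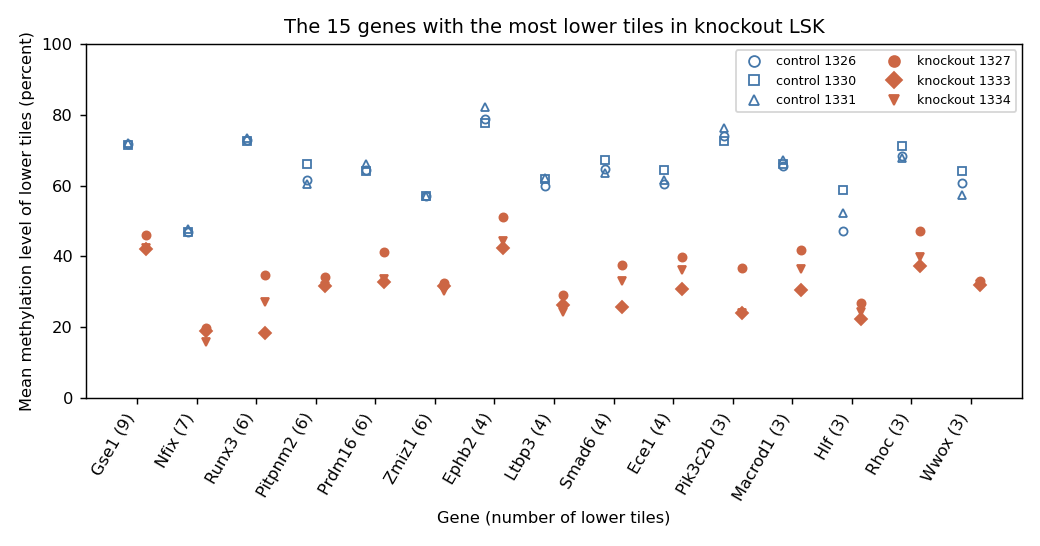
Mean level (percent) of the lower tiles of the 10 genes with at least 4 and of 5 genes with 3, those with the largest median loss, with the number of lower tiles in parentheses. Open blue symbols are the 3 controls and filled orange symbols the 3 knockouts; these tiles were chosen for their fall, and the gap is widest in Runx3 and Pik3c2b (46.3 and 45.9 points).

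The largest single loss among tiles with at least 5 positions was in the body of Pik3c2b, chr1:133084001-133085000, which went from 81.2, 90.03 and 89.2% to 22.1, 21.9 and 14.2% (-67.4 points, adjusted p = 5.145e-05). Next to 3 Runx3 tiles stood Cbfa2t3, which encodes the corepressor ETO2 (chr8:122674001-122675000, 66.2 ± 3.35 to 11.7 ± 2.56%, SD, n = 3), Zc3h3, a nuclear RNA processing gene (-51.4 points), Pitpnm2 (-48.8), Prdm16 (-48.0), Pou2f2, the gene of the lymphoid factor Oct-2 (-47.7), and H2-DMa, of MHC class II peptide loading (-47.2). Each of these 10 calls held when any 1 library was left out. The mean coverage behind the Pik3c2b tile was 91.5 reads per position.

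The 3 higher tiles all lie outside genes. The tile with the largest rise lies 16088 bp from a start of Dmrtb1 (chr4:107667001-107668000) and went from 42.2, 63.9 and 35.6% to 96.1, 98.2 and 81.8%; its call was lost without control 1331. The other 2, nearest to A430005L14Rik (chr4:153742001-153743000, 61.4 to 87.2%) and Epm2a (chr10:11493001-11494000, 74.8 to 95.2%), lie in 2 of the windows where the groups listed different positions. The former lost its call without control 1330, and the latter without control 1330, knockout 1333 or knockout 1334.

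Gene groups that bear on blood were then counted against the share of all tiles, 0.952%. The lists were drawn up with earlier results of these data known, several genes are in more than 1 list, and tiles were not matched for their control level, so the counts describe the lists. Of 34 genes of stem cell self-renewal, 6 had a lower tile, 13 of 346 tiles in all (3.76%). Prdm16 held 6 of the 13, all in the chromosome 4 window where the groups listed different positions, and Hlf held 3. The rest lay in Gata2, Gfi1, Msi2 and Runx1. The tile of Gfi1, a zinc finger repressor gene (chr5:107721001-107722000, 53 positions), went from 31.8, 33.2 and 29.3% to 3.46, 4.97 and 6.35%. Gata2, a zinc finger factor gene of early blood progenitors (chr6:88204001-88205000), fell from 80.2 ± 1.15 to 50.0 ± 6.74% (SD, n = 3), and Msi2, a Musashi RNA-binding protein gene, by 32.9 points. The median over the list's tiles was -1.34 points, against -0.387 over all tiles.

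Leukaemia genes had 13 of 240 tiles lower (5.42%), 7 of them in Nfix, the rest in Cbfa2t3, Mn1, Gata2 and Runx1. Mn1, a transcriptional cofactor gene (chr5:111419001-111420000, 47 positions), went from 80.4, 84.2 and 78.2% to 54.1, 47.2 and 47.0%, and Runx1 (chr16:92695001-92696000), the Runt factor gene of blood formation, from 91.7 ± 0.841 to 64.8 ± 10.2% (SD, n = 3). Among myeloid genes 3 of 56 tiles were lower, in Gfi1, Irf8 and Spi1 (the gene of PU.1), and among erythroid and megakaryocyte genes 4 of 91, in Itga2b, Ank1, Gp1bb and Zfpm1. The Irf8 tile fell by 24.5 points; the Spi1 and Zfpm1 calls each held in 1 of the 6 fits that left out a library. Without 1333, 2 of the 91 erythroid and megakaryocyte tiles were lower. The Hox list had 2 of 171 (1.17%), over Hoxa3, Hoxa5 and Hoxa6; the larger, chr6:52204001-52205000 with 75 positions, went from 56.9, 41.9 and 53.6% to 28.9, 16.4 and 18.9%. Lymphoid genes had 1 of 194 (0.515%), in Notch1 (69.2 to 48.2%).

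Among signalling genes, 2 of 122 RAS, MAPK and cytokine tiles were lower (1.64%), in Rps6ka1, a ribosomal S6 kinase gene (-24.2 points), and Socs2, a suppressor of cytokine signalling (92.6, 94.1 and 92.5% to 63.7, 58.9 and 68.9%). Adhesion and homing genes had 2 of 89, in Itga6, an integrin gene (-26.8 points), and Gnai2, the inhibitory G protein gene downstream of chemokine receptors. The Gnai2 tile (chr9:107630001-107631000, 4 positions) went from 75.6, 73.7 and 74.4% to 10.3, 18.03 and 10.2%. Developmental transcription factors had 1 of 300 (0.333%), in Tbx1 (0 without 1333), imprinted genes 1 of 99, in Kcnq1, and the germline (27 tiles) and interferon (25 tiles) lists none; at these sizes the share over all tiles comes to less than 1 tile. Endothelial and stromal genes, markers of other cells of the marrow, had 3 of 76: Egfl7 (32.7 to 0.921%), Pdgfrb (83.8 to 54.5%) and Tagln (50.5 to 25.9%).

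Marker lists of other blood cells gave 0 of 11 tiles for GMP and neutrophils, 0 of 6 for erythroid cells (1 without 1333), 1 of 9 for megakaryocytes (Itga2b), 0 of 50 for B cells and 0 of 33 for T cells. The LSK and stem cell markers gave 3 of 42 (6 without 1333), all 3 in Hlf, and endothelium and stroma 2 of 33. The share over all tiles, 0.952%, comes to less than 1 tile in each of these lists. A count of 0 is therefore near that share, and lists of these sizes cannot be set against each other. A change in the mix of cells within the LSK gate and a change within each cell cannot be told apart in these bulk libraries.

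The genes of the methylation machinery themselves did not pass at their starts or bodies. Of 14 measured starts and 15 measured bodies none was called. Of 91 tiles 1 was lower (1.10%), inside Tet1 (chr10:62866001-62867000, 63.1, 74.1 and 66.1% to 42.0, 41.7 and 45.1%), and without 1333, 2 of the 91 were lower. Over all features 0.832% of starts, 1.99% of bodies and 0.952% of tiles were lower. At these sizes the counts are near those shares and do not set the machinery apart. The body of Dnmt3a was at 10.7, 11.3 and 10.2% in controls and 13.4, 7.54 and 9.01% in knockouts. An annotated start can lie inside a gene, and its positions then count in the body too. The 359 body positions of Dnmt3a include the 286 of its start window, at 0.185% in controls and 0.243% in knockouts. Its body level is therefore mostly that of the start. The bodies of Dnmt1 (115 positions) and Tet3 (165) likewise include the 51 and 53 positions of their start windows. Dnmt3b, the other de novo enzyme, held 87.9 ± 1.36 and 87.3 ± 2.70%, Dnmt1 40.4 ± 1.52 and 40.8 ± 4.59%, and Tet2 95.1 ± 0.258 and 91.1 ± 3.15% over their bodies (SD, n = 3; adjusted p from the quasi-binomial test 0.962, 0.949 and 0.216). Tet3 differed by 0.322 points and Uhrf1, which recruits Dnmt1 to replicated DNA, by -0.855.

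Whole gene bodies, taken more than 1 kb inside both gene ends, were lower by at least 10 points in 280 of 14091 genes (1.99%) and higher in 1 (0.0071%). All 3 knockouts lay below all 3 controls in 20.9% of bodies and above in 1.77%. Sdsl, a serine dehydratase-like gene, fell most, from 69.6, 68.2 and 65.5% to 37.0, 29.1 and 29.5% over 13 positions (adjusted p = 0.0005, quasi-binomial test). It was followed by Tinagl1 (85.3 to 50.3%), the predicted gene Gm51900 (85.4 to 51.5%), Hlx, a homeobox gene of blood progenitors (67.6 to 36.2%), Cyp2w1, a cytochrome P450 gene (60 to 28.6%) and Ssbp4, a gene of the single-stranded DNA-binding protein family (69.2 to 38.3%).

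Of the listed genes, the bodies of Hlf (45.3, 54.8 and 49.4% to 25.3, 26.1 and 23.8%), Gfi1 (21.6 to 3.61%), Mn1 (48.6 to 30.04%), Gnai2 (38.5 to 22.7%), Hand1 (49.3 to 23.4%), Hoxb1 (36.8 to 21.5%), Pdgfrb (89.2 to 75.0%) and Pou5f1 (24.7 to 13.7%) were lower. The calls of Gnai2, Hlx, Hoxb1, Pdgfrb and Pou5f1 were lost without control 1326, control 1330 or knockout 1334, and that of Pou5f1 also without 1333. The 1 higher body, 4930573G07Rik, went from 86.9, 88.7 and 85.0% to 96.7, 99.3 and 96.7%, and lost its call without control 1326, control 1331, knockout 1333 or knockout 1334. Without 1333 the count of lower bodies was 289 (2.05%, 237 shared); it was 505 without 1327, 80 without 1334 and 114, 118 and 120 without controls 1326, 1330 and 1331. With no moderation it was 0, with 2001 bodies at an unadjusted p under 0.05.

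Around gene starts, within 1 kb on either side, the median control level over all 16345 starts was 0.433%, and 136 were lower by at least 10 points (0.832%), in 113 separate regions, with none higher. Of the 136, 89 are annotated starts, as are 12864 of all 16345, and the others are gene ends taken in place of a start. The 3 knockouts were below the controls at 12.7% of starts and above at 4.68%. The called starts were already methylated in the controls, at a median of 58.2%, and fell by a median of 19.6 points. A start below 10% in the controls could not fall by the 10 points that a call needs, so their higher level follows in part from the threshold. Of the 76 lower starts with a measured body, 8 also had a lower body (10.5%, against 1.99% of all bodies). A start region can lie inside a body, so that both count the same positions, and the bodies were not matched for control level. These shares therefore cannot show whether starts and bodies fell together. Without 1333, 121 were lower (0.74%, 114 shared) and 3 higher; without controls 1326, 1330 and 1331 the counts were 62, 82 and 60, and without 1327 and 1334 184 and 52. With no moderation it was 0, with 1544 at an unadjusted p under 0.05.

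The largest losses at starts included 2 of the printed promoters, Gm32273 and Alpk3. Of the other printed promoters, Gm13205 and Hoxa5 belong to called starts, while Spred3 and Eva1b were not among the called starts. The region shared by Arhgef15, a guanine nucleotide exchange factor gene, and Gm32273 fell from 82.2, 77.0 and 82.5% to 45.2, 38.7 and 35.5%. An end shared by 14 genes of the gamma protocadherin cluster, cell adhesion genes on chromosome 18, fell by 40.1 points, and the start of Qprt, an enzyme gene of NAD synthesis, by 37.9 (70.6, 77.6 and 64.2% to 40.1, 32.8 and 25.8%). Gm31365 (-37.4 points), Alpk3 (-35.5) and 5730596B20Rik (-33.3), a non-coding gene, followed. The Qprt call was lost without control 1330, and that of 5730596B20Rik without any 1 control or without knockout 1334. Of 37 measured Hox starts 2 were lower: Hoxa5, from 58.0, 43.4 and 53.4% to 27.4, 19.7 and 19.4% over 94 positions, and Hoxa6, by 13.9 points. The region around an end of Tagln, a smooth muscle marker gene without an annotated start here, fell by 24.4 points.

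Promoter windows were also sorted by their CpG count. Windows with 5 to 9 CpGs went from 38.4 to 35.8% (455 windows) and those with 20 to 29 from 1.06 to 1.02% (3732 windows, overlapping groups). Of the windows at 20 to 80% in control GMP, those with 5 to 9 CpGs differed by -7.88 points (88 windows), with 10 to 14 by -9.16 (68), with 15 to 19 by -7.05 (28) and with 20 to 29 by -5.37 (23), each with an exact permutation p of 0.1, the smallest possible. At 30 or more CpGs, 13 such windows differed by -0.108 points, with 42.1, 35.6 and 38.9% in the knockouts and 37.8, 39.97 and 39.1% in the controls. The windows lower in all 3 knockouts were 8.04% of the 10293.

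The GMP libraries, which chose no tile, were read at 952 of the 994 lower tiles. Their mean level was 63.7 and 64.2% in control GMP 346 and 349 and 45.4 and 51.2% in knockout GMP 178 and 179, a difference of -15.7 points (two-sided exact permutation over the libraries, p = 0.333, below which 2 against 2 cannot go). Both knockouts lay below both controls in 80.4% of these tiles, against 26.0% of all tiles. The 2 sets were not matched for level. Of all tiles, 27.3% lay at 0 to 20% and 53.6% at 80 to 100% in control GMP. Of the lower tiles, 2.72 and 25.75% did. Pik3c2b held 92.5 and 94.0% against 51.7 and 68.2%, and Nfix (chr8:84721001-84722000) 77.8 and 82.5% against 14.3 and 42.3%. The Tet1 tile did not separate in GMP, with 54.3 and 40% in controls and 43.1 and 51.1% in knockouts.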

How the data were processed

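The deposited files give, per library and C position, a read count (the coverage) and 2 percent values, for C and T calls, per the file headers. Per the labels' protocols, DNA was cut with MspI and 50-bp single-end reads were sequenced; per the submitters' processing notes, Bismark and the builds GRCm38 and mm10 were used. Whether duplicates were removed is not given in the sources used here, and reads without molecular identifiers are not independent molecules. The listed positions have a coverage of at least 10. Methylated reads were computed as coverage times percent C; every product was a whole number.

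Levels of bins are means over positions, compared by exact permutation over the 3 against 3 libraries. Features (tiles with at least 3 positions, gene bodies and starts with at least 5) were tested with a quasi-binomial model of summed reads; dispersion was moderated with limma 3.58.1 (R 4.3.3), its prior fitted on features with a pooled level of 5 to 95%, and p-values were adjusted by Benjamini-Hochberg over all features of that kind. Thresholds were an adjusted p of 0.05 with 20 points for tiles or 10 points for bodies and starts. On simulated data the test recovered 29 of 67 tiles lowered by 20 points, 65 of 67 lowered by 30 and 66 of 66 lowered by 50, and called 7 unchanged gene bodies in theirs. A loss of 20 points sits at the threshold for tiles, so the first count is set largely by it. The simulated spread was drawn independently for each feature and library, so it held no shift of a whole library.

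Genes came from RefSeq (GRCm38.p6): 33073 protein-coding and lncRNA genes, 25748 of them with an annotated start in the promoter table, which holds none on chromosome 18 (no sequence from there is printed); 3481 of the 16345 tested starts are gene ends. Of 211840 listed positions in promoter windows, 211064 fell on CG letters. Named genes are the 15 with the most lower tiles (ties by the larger median loss), the 10 largest lower tiles with at least 5 positions, every higher tile, the 6 largest starts and bodies (a start region shared by genes counted once), list members that were called, the methylation machinery and the 6 printed promoters; the higher body and some contrasts were added after their values were seen. Members and lists were chosen with earlier results of these data known. A GMP library with conflicting genotype labels was not used.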

Additional observations from a re-analysis of the deposited data

Results flagged for a closer look

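At 2 of the 3 tiles that were higher in knockout LSK, every knockout GMP library lay below every control GMP library, so the groups moved in opposite directions in the 2 cell types; the difference was not tested. The tile 16088 bp from a start of Dmrtb1 (chr4:107667001-107668000) differed by 44.8 points in LSK and by -63.1 points in GMP, where the controls held 87.2 and 90.9% and the knockouts 12.1 and 39.7%. The tile nearest to Epm2a (chr10:11493001-11494000) differed by 20.4 points in LSK and by -16.6 in GMP, with controls at 95.5 and 94.9% and knockouts at 65.6 and 91.5%. Of the 97 named lower tiles with GMP values, none moved in the opposite way in every GMP library, and in 81 both GMP knockouts lay below both controls.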

How the results depend on the processing

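Without moderation of the dispersion no feature passed: 0 lower tiles, 0 lower gene bodies and 0 lower gene starts, with 10740, 2001 and 1544 features at an unadjusted p under 0.05. With limma on logit levels 649 tiles and 73 starts were lower, and with at least 5 positions per tile, where 60915 tiles were tested, 555 tiles were. Leaving out 1 library at a time, 583 to 1455 tiles, 80 to 505 bodies and 52 to 184 starts were lower. The prior fitted on all features gave 991 tiles, 292 bodies and 190 starts, tiles of 500 bp 1093, and only the 4 libraries with few Y positions (chosen after seeing the data) 941, 281 and 91. Limma on logit levels with the set of libraries by Y positions (1326 with 1327, the other 4) as a term, also chosen after seeing the data, gave 423, 152 and 52. All 183 alternative values of the mean, the bins and the GMP check kept their direction, but with weighting by coverage the exact permutation p was above 0.1 for the mean (0.7), 1 of 5 level bins, 3 of 4 density bins (0.5 at 20 or more) and all 7 distance bins; that weighting moved the bin of 5 to 9 listed positions to -2.63 points, and counting density within 500 bp moved the bins of 10 to 19 and 20 or more to -1.88 and -0.326. For bins whose groups did not overlap, leaving out a library could not have changed the direction. Of 142 named features none changed direction in 2213 alternative values, and 1801 stayed called. The features were chosen for their difference in these libraries. A change of prior, moderation, dispersion floor or model leaves that difference as it is. In every lower feature all knockouts lay below all controls, so leaving out a library could not reverse it. The kept direction is therefore no support for these features. Leaving out control 1326, 1330 or 1331 ended 32, 34 and 36 calls, and leaving out knockout 1327, 1333 or 1334 ended 2, 16 and 37. Where an arm had 2 libraries they were assumed to vary like the others. Apart from fewer libraries or tiles, the cause was not tested. No paired analysis was possible because the labels give the groups no shared replicate number. Only MspI fragments with at least 10 reads in all 6 libraries were seen.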

Other observations

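Promoter positions at 20 to 80% in control GMP were also split by the base after the CG. Before C, 603 positions went from 38.5, 39.4 and 38.7% in the controls to 32.9, 28.5 and 30.1% in the knockouts, which is 21.5% of the control level. Before A, 221 positions went from 44.4, 43.6 and 43.5% to 39.6, 37.0 and 36.5%, or 14.01%. The difference was -8.37 points before C and -6.14 before A, a gap of -2.23 points (exact permutation p = 0.1, the smallest that 3 against 3 libraries can give); before G it was -7.63 and before T -8.69. The comparison of C with A was chosen after the values were seen.

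The loss between the 2 libraries with many listed Y positions (control 1326 and knockout 1327) was smaller than among the other 4 in the bins at 20% and above. It was -5.63 against -9.05 points at 40 to 60% in control GMP and -0.857 against -1.65 at 80 to 100%. Beyond 100 kb from a gene start, at 20 to 80%, it was -1.06 against -2.85 points. With 1 control and 1 knockout among the former, this difference was not tested.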
